A study of Mus musculus with 12 samples.

Results

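The insulin-like growth factor (IGF) and growth hormone axis was followed here through 10 genes in gonadal white adipose tissue (GWAT) of mice that lack HOIP in adipocytes. The genes were the ligands Igf1 and Igf2, the receptors Ghr and Igf1r, and the binding proteins Igfbp2, Igfbp3, Igfbp4, Igfbp5, Igfbp6 and Igfbp7. They were taken by symbol, and all 10 were found among the 55281 genes of the deposited table and all 10 passed the filter on low counts. RNA was sequenced in 12 libraries, 3 for each of 4 groups, from male mice put on their diet at 6 weeks of age and kept on it for 16 weeks. Each library held RNA of 3 pooled mice, 22 to 24 weeks old. WT CD mice were Hoip fl/fl AdipoQ.Cre- on a control diet with 14% fat. WT HFD mice had the same genotype and a high-fat diet with 60% fat. HoipA-KO CD and HoipA-KO HFD mice were Hoip fl/fl AdipoQ.Cre+ on these diets, so that the floxed Hoip allele was present in all 4 groups. The adiponectin promoter restricts Cre to adipocytes, whereas the libraries held RNA of the whole tissue.

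Growth hormone binds its receptor GHR and acts through the kinase JAK2 and the factors STAT5A and STAT5B, and a classical target of this signal is Igf1. IGF1 and IGF2 bind the receptor kinase IGF1R, while most of the IGF in blood and tissue is held by the IGF binding proteins, which lengthen its life and limit its access to the receptor. In adipose tissue, growth hormone is known for promoting lipolysis and opposing insulin, and Igf1 is made by stromal cells and macrophages as well as by adipocytes.

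Total counts ranged from 30513500 to 60540300 per library, and 3 counts, taken as the floor of detection, corresponded to 0.0496 to 0.0983 CPM, which are counts scaled to the library's total. Levels are given as CPM with TMM normalization over the 12 libraries. The libraries of a group resembled each other with Pearson's r of 0.971 to 0.993 across genes in the other 3 groups but of 0.785 to 0.907 in WT CD. WT CD replicate 3, in which 5838 genes with 19.9% of the counts were more than 8 times above every other library, is not used in the study's deposited comparisons. The tests below therefore used the other 11 libraries, and values over all 12 are given beside them. In WT CD replicate 2, 515 genes held 6.84% of the counts in this way, and 7 markers of epididymal epithelium summed to 14678 CPM, against 0 to 1285 CPM in the other libraries. Rnf31, which encodes HOIP, had 12.6 to 20.7 CPM in WT CD, 17.9 to 19.8 in WT HFD, 17.9 to 21.7 in HoipA-KO CD and 19.1 to 22.5 in HoipA-KO HFD. Counts of this gene over the whole tissue therefore did not separate the genotypes, and counts over a whole gene cannot show the loss of single exons in 1 cell type.

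The labelled tissue was checked against its markers. All 10 adipocyte markers, among them Adipoq and Plin1, were detected in every library, and 9 of 10 were lower in HoipA-KO than in WT on CD and 10 of 10 on HFD. Their summed level was 14115 to 49247 CPM in WT CD and 22863 to 30997 in WT HFD, against 6569 to 9463 in HoipA-KO CD and 5723 to 8336 in HoipA-KO HFD. The 9 macrophage markers summed to 332 to 561 CPM in WT CD, 1595 to 5047 in WT HFD, 8529 to 10206 in HoipA-KO CD and 5943 to 10544 in HoipA-KO HFD, with 9 of 9 higher in HoipA-KO on CD and 5 of 9 on HFD. The markers given as lower or higher passed edgeR's test at an adjusted p under 0.05. That test picked out 37.7% (CD) and 11.8% (HFD) of all genes in either direction. Fewer cells of a type and less RNA per cell cannot be told apart in such libraries.

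Ghr was the member that was lower in HoipA-KO on both diets, and Igfbp7 had the highest level per length, so a promoter of each is shown to let their bases be compared. The windows are the 250 bases before a RefSeq start site in GRCm38.p6, written 5' to 3' on the strand of the gene with every CG step in capitals. The Ghr window lies at chr15:3581843-3582092 on the minus strand, before the more internal of 2 RefSeq start sites of this gene, and the Igfbp7 window at chr5:77408046-77408295 on the minus strand. Neither overlaps an exon of the GENCODE M21 annotation.
Ghr: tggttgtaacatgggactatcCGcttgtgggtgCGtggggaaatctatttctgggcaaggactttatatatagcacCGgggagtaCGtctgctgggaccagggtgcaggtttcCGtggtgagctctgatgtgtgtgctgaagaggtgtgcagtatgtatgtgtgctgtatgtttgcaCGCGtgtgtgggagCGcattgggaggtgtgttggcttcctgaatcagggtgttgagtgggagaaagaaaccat
Igfbp7: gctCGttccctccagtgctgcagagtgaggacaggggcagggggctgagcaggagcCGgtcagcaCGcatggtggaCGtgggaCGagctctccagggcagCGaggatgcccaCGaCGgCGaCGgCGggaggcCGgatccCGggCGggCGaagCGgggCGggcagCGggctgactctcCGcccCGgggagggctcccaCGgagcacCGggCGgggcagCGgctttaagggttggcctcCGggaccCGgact
The Ghr window held 8 CG steps and 52.0% G and C, and the window before the other Ghr start site held 17 CG steps and 65.6%. The Igfbp7 window held 26 CG steps and 74.0% G and C, beside a median of 6 CG steps over 32851 RefSeq windows of this length. The letters TTCNNNGAA, which STAT5 is known to bind, stood on either strand in 7.02% of these windows and in 0 of the 15 windows found for the 10 members. The letters TTGCNNAA, an approximate C/EBP motif, stood in 5.14% of all windows and in 0 of the 15.

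Does loss of HOIP in adipocytes alter the axis in lean mice? In HoipA-KO against WT on CD, Ghr fell and Igf1 rose, while none of the 6 binding proteins, Igf2 and Igf1r passed the test. These were 2 of 10 members called with edgeR's quasi-likelihood test at a Benjamini-Hochberg adjusted p under 0.05, in a comparison that called 37.7% of all 18427 genes. Before adjustment, 5 of 10 members and 8921 of 18427 genes had a p under 0.05 with edgeR. The median log2 fold change of the members was -0.05, beside -0.06 over all genes. Over all 12 libraries, 4 of 10 members were called, with Igfbp6 and Igfbp7 added as higher, beside 34.6% of 18074 genes. On HFD, 1 of 10 members, Ghr, was called, beside 11.8% of all genes, and over all 12 libraries again Ghr alone, beside 2.89%. The members' median was -0.12 on HFD, beside 0.06 over all genes. The counts over 11 libraries were no higher than these shares of all genes would give for 10 genes, and the count on CD over 12 libraries was near it.

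**Figure D1:**
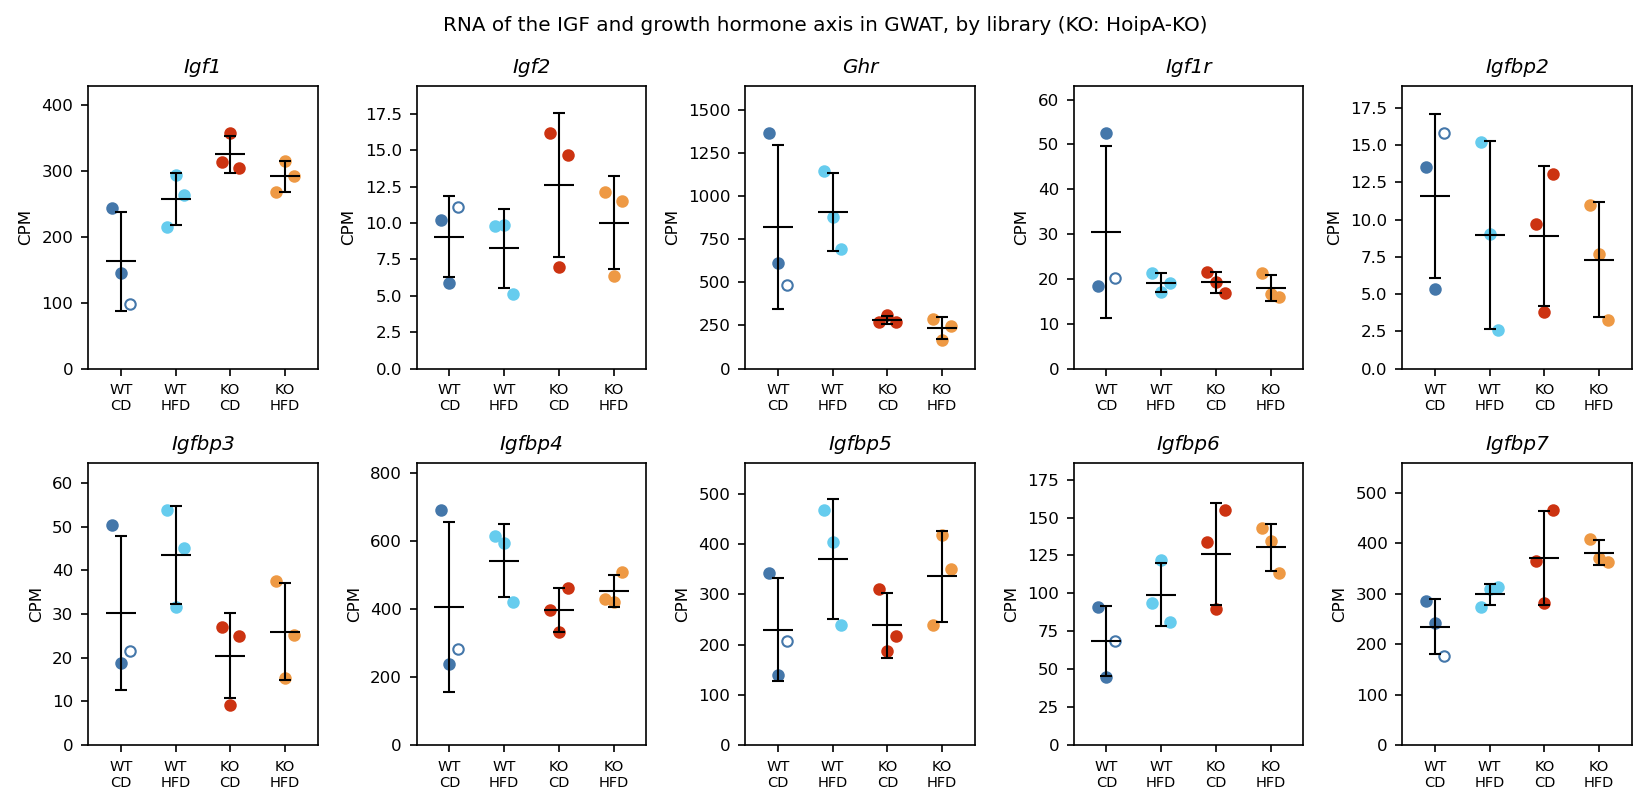
CPM, normalized by TMM over the 12 libraries, of the 10 members in the 4 groups (horizontal axis, KO stands for HoipA-KO). Points are libraries of 3 pooled mice, the open circle is WT CD replicate 3, and black bars are the mean and SD of 3 libraries. The 6 HoipA-KO libraries sit between 166 and 308 CPM of Ghr, all below the 6 WT libraries. The points of the genotypes do not overlap for Igf1 on CD and for Igfbp7 on HFD. The latter difference was not called (adjusted p = 0.232 with edgeR), and how many of all genes part in this way was not counted.

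Ghr (chr15:3317760-3583492 on the minus strand of GRCm38, 10 transcripts in GENCODE M21) encodes the receptor of growth hormone. Its level was 1366, 612 and 484 CPM in WT CD replicates 1, 2 and 3, and 1147, 881 and 694 CPM in WT HFD replicates 1, 2 and 3. In HoipA-KO it was 269.9, 308 and 270.1 CPM on CD, and 288, 166 and 248 CPM on HFD. All 6 HoipA-KO libraries were thus below all 6 WT libraries, and the WT libraries were spread more widely. On CD, Ghr fell by 1.80 on the log2 scale (SE 0.35, 95% confidence interval -2.60 to -1.01, adjusted p = 0.00406 with edgeR), a level 3.49 times lower. Over all 12 libraries the change was -1.54 (adjusted p = 0.0137). On HFD, Ghr fell by 1.96 (SE 0.33, interval -2.70 to -1.22, adjusted p = 0.0120 with edgeR). The value over all 12 libraries was -1.96 (adjusted p = 0.0346). The difference on HFD was not called without HoipA-KO HFD replicate 2 (-1.76, adjusted p = 0.0504), whereas that on CD was called with each of the 11 libraries left out in turn and lay between -2.27 without WT CD replicate 2 and -1.12 without WT CD replicate 1. Since replicate 3 was not in these fits, each fit without WT CD replicate 1 or 2, here and for the genes that follow, held a single WT CD library. Its p-values took their spread from the other groups and assume that this library varied as they did.

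Ghr moved together with the adipocyte markers. Per 1000 CPM of the 10 summed markers, Ghr was 27.7, 28.9 and 34.3 CPM in WT CD, 37.0, 29.8 and 30.4 in WT HFD, 31.0, 46.9 and 28.5 in HoipA-KO CD, and 34.5, 29.0 and 30.0 in HoipA-KO HFD. On this scale the groups overlapped. Over the 12 libraries Ghr itself spanned a range of 8.23-fold, the summed markers one of 8.61-fold, and the level of Ghr relative to them one of 1.69-fold. The part of the adipocyte markers in the change of Ghr was not tested.

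Igf1 (chr10:87858265-87937042 on the plus strand, overlapped by the antisense gene Igf1os) encodes the main ligand of IGF1R. Its level was 244, 145 and 97.9 CPM in WT CD, 215, 294 and 263 in WT HFD, 314, 357 and 304 in HoipA-KO CD, and 268, 315 and 292 in HoipA-KO HFD. The HoipA-KO libraries on CD were all above the WT libraries on CD, whereas the genotypes overlapped on HFD. On CD, Igf1 rose by 0.74 on the log2 scale (SE 0.24, interval 0.22 to 1.27, adjusted p = 0.0327 with edgeR), and over all 12 libraries by 1.00 (adjusted p = 0.0233). This call was lost without WT CD replicate 2 (0.42, adjusted p = 0.171), and also without HoipA-KO CD replicate 1 (adjusted p = 0.0711), 2 (0.0844) or 3 (0.0540), WT HFD replicate 3 (0.0502) or HoipA-KO HFD replicate 3 (0.0531). It was lost as well in a fit of only the 2 groups (0.70, adjusted p = 0.135). On HFD the difference was 0.18 (SE 0.21, interval -0.28 to 0.64, adjusted p = 0.574), and the interval included both a fall and a rise.

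Igf1 and the macrophage markers were both higher in HoipA-KO CD than in WT CD, but not in proportion. Per 1000 CPM of the 9 summed macrophage markers, Igf1 was 295 to 435 CPM in WT CD, 52.1 to 135 in WT HFD, 31.9 to 36.8 in HoipA-KO CD and 29.9 to 45.0 in HoipA-KO HFD. The markers spanned a range of 31.8-fold over the 12 libraries and Igf1 one of 3.65-fold. The 8 progenitor and fibroblast markers also mark cells that make Igf1. Their sum was 757 to 1220 CPM in WT CD and 1625 to 2388 in WT HFD. It was 1981 to 2756 CPM in HoipA-KO CD and 2656 to 2974 in HoipA-KO HFD. Of these 8 markers, 3 passed the test as higher in HoipA-KO on CD and 1 as lower on HFD. That is near the 37.7% (CD) and 11.8% (HFD) of all genes called in either direction. None of these markers was at 0 in any library, and their part in the change of Igf1 was not tested.

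**Figure D2:**
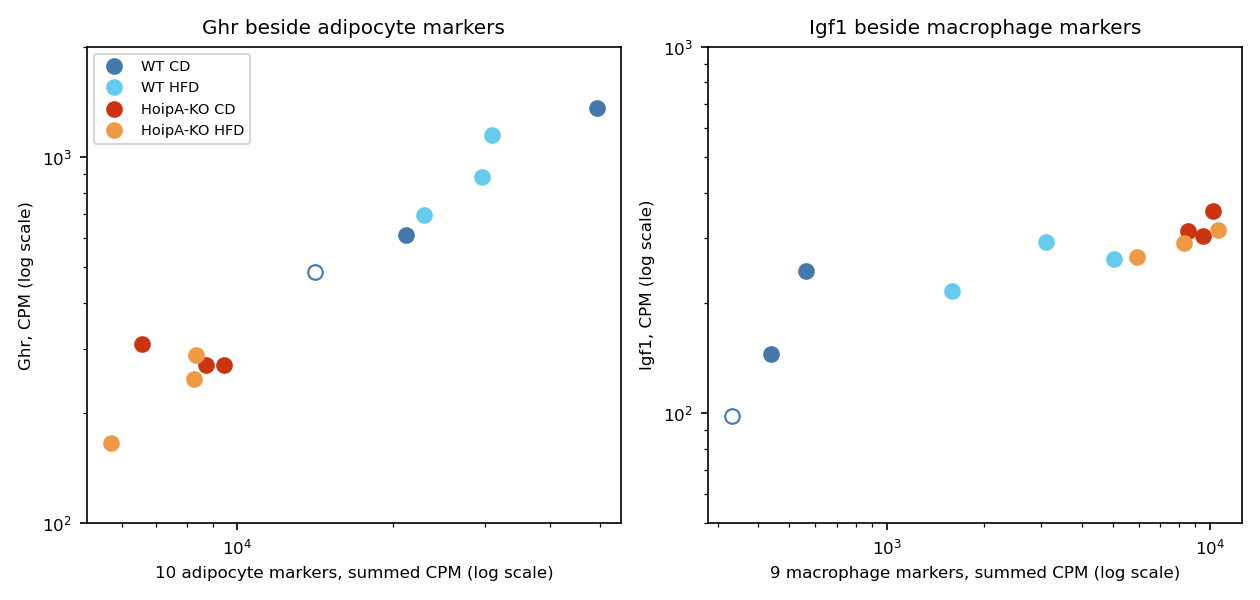
Left, Ghr against the summed CPM of 10 adipocyte markers, and right, Igf1 against the summed CPM of 9 macrophage markers, both axes on a log scale, 1 point per library and the open circle WT CD replicate 3. In the left plot the 12 libraries lie along a band in which Ghr is 27.7 to 46.9 CPM per 1000 CPM of markers, and in the right plot Igf1 spans 97.9 to 357 CPM while the markers span 332 to 10544 CPM.

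Igf2 (chr7:142650766-142666816 on the minus strand), the fetal growth factor expressed from the paternal allele, was low throughout. It had 10.2, 5.87 and 11.1 CPM in WT CD, 5.09 to 9.87 CPM in WT HFD, 6.97 to 16.2 CPM in HoipA-KO CD and 6.33 to 12.2 CPM in HoipA-KO HFD. All 4 groups overlapped, and the log2 fold changes in HoipA-KO of 0.65 on CD (SE 0.46, adjusted p = 0.284) and 0.28 on HFD (SE 0.40, adjusted p = 0.660) did not pass edgeR's test. Igf2os, Gm49394 and Mir483 overlap Igf2, and whether the counting used strand is not given in the sources used here. Per kb of exon, Igf1 was 5.11 to 29.9 times above Igf2 in the 12 libraries.

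Igf1r (chr7:67952827-68233668 on the plus strand), the receptor kinase of both ligands, had 18.5, 52.5 and 20.2 CPM in WT CD. In the other 9 libraries it had 16.0 to 21.6 CPM. The high value was in WT CD replicate 2, the library with the epididymal transcripts, and the part of these in it was not tested. The log2 fold change in HoipA-KO on CD was -0.88 (SE 0.35, adjusted p = 0.0701 with edgeR). It passed the test with DESeq2 (-0.94, adjusted p = 0.0371) and in the protein-coding table (-1.05, adjusted p = 0.0449). With a single WT CD library it was 0.06 (adjusted p = 0.850) without replicate 2 and -1.45 (adjusted p = 0.00152) without replicate 1. With WT CD replicates 1 and 3 it was -0.03 (adjusted p = 0.910), so that both fits without replicate 2 gave values near 0. On HFD it was -0.09 (SE 0.31, interval -0.80 to 0.61, adjusted p = 0.858). Per kb of exon, Ghr was 21.6 to 137 times above Igf1r in WT CD, 67.5 to 99.6 in WT HFD, 23.2 to 29.7 in HoipA-KO CD and 18.6 to 28.7 in HoipA-KO HFD.

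Relative to length, the 6 binding proteins made up most of the members' RNA. Per kb of exon over the 11 libraries, the members ranked as Igfbp7 (mean 276 CPM per kb), Igfbp4 (105), Igfbp6 (98.4), Ghr (62.8), Igfbp5 (50.2), Igf1 (27.6), Igfbp3 (9.84), Igfbp2 (4.64), Igf2 (1.73) and Igf1r (1.30). Igfbp7 had at least 199 CPM per kb in each of the 11 libraries, above the highest value of any other member, which was 157 for Igfbp4. Below Igfbp7, the ranges of neighbours in this order overlapped. Igfbp7, a binding protein with low affinity for IGF that vessels and stroma secrete, took 40.9% to 61.1% of the summed Igfbp level per kb in the 12 libraries. The sum of the 6 genes was 11.4 to 27.3 times that of the 2 ligands per kb, running from 20.8 to 27.3 in WT CD, 17.6 to 23.6 in WT HFD, 11.4 to 20.5 in HoipA-KO CD and 18.3 to 21.4 in HoipA-KO HFD. The HoipA-KO CD libraries were all below the WT CD libraries in this ratio, on which no test was run, and the other pairs of groups overlapped.

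**Figure D3:**
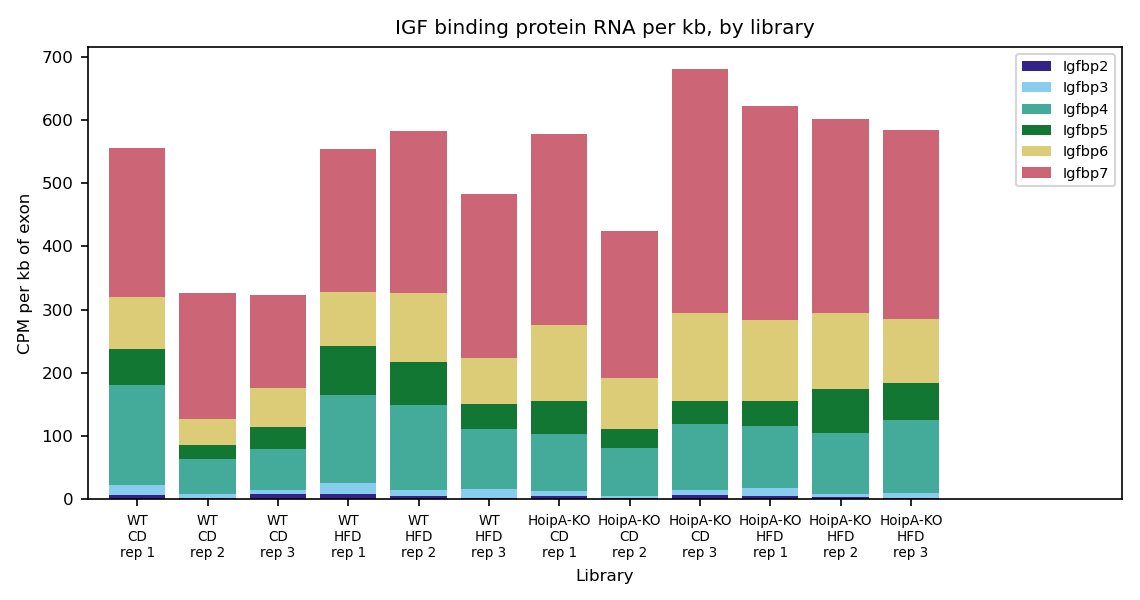
CPM per kb of exon of the 6 binding protein genes, stacked for each of the 12 libraries. The stacks reach from 322 CPM per kb in WT CD replicate 3 to 681 in HoipA-KO CD replicate 3, and Igfbp7 is the largest segment in every library.

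Igfbp6, which prefers IGF2 over IGF1, and Igfbp7 were the binding proteins nearest to a call. Igfbp6 (chr15:102144362-102149511 on the plus strand) had 91.3, 45.2 and 68.8 CPM in WT CD, 94.0, 122 and 81.4 in WT HFD, 134, 89.4 and 155 in HoipA-KO CD, and 143, 135 and 113 in HoipA-KO HFD. The groups overlapped on each diet, on CD by less than 2 CPM. The log2 fold change on CD was 0.89 (SE 0.33, adjusted p = 0.0587 with edgeR), with 0.88 (adjusted p = 0.0362) over all 12 libraries, 1.48 (adjusted p = 0.0130) without WT CD replicate 1 and 1.08 (adjusted p = 0.0392) without HoipA-KO CD replicate 2. Without WT CD replicate 2 it was 0.47 (adjusted p = 0.299). On HFD it was 0.39 (SE 0.29, adjusted p = 0.372).

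Igfbp7 (chr5:77349240-77408041 on the minus strand, overlapped on the other strand by Polr2b and Gm34648) had 286, 241 and 177 CPM in WT CD, 274, 309 and 313 in WT HFD, 365, 281 and 466 in HoipA-KO CD, and 409, 371 and 362 in HoipA-KO HFD. On CD the groups overlapped, and on HFD they did not. The log2 fold changes were 0.50 on CD (SE 0.21, interval 0.02 to 0.98, adjusted p = 0.0941 with edgeR) and 0.35 on HFD (SE 0.19, interval -0.07 to 0.78, adjusted p = 0.232). On CD the test was passed over all 12 libraries (0.66, adjusted p = 0.0447) and without HoipA-KO CD replicate 2 (0.66, adjusted p = 0.0330). The latter was the only 1 of 11 fits with a library left out that called Igfbp7. Without HoipA-KO CD replicate 3 the change was 0.20 (adjusted p = 0.421 with edgeR).

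The other 4 binding proteins overlapped between genotypes on both diets. Igfbp3, the main carrier of IGF1 in serum, had 18.7 to 50.4 CPM in WT CD and 31.6 to 53.9 in WT HFD, against 9.22 to 27.0 in HoipA-KO CD and 15.3 to 37.5 in HoipA-KO HFD. Its log2 fold changes were -0.76 on CD (SE 0.54, adjusted p = 0.293) and -0.74 on HFD (SE 0.49, adjusted p = 0.324). Igfbp4, which inhibits IGF action until it is cleaved by the protease PAPPA, had 239 to 694 CPM in WT CD, 420.0 to 615 in WT HFD, 334 to 462 in HoipA-KO CD and 422 to 509 in HoipA-KO HFD. Its log2 fold change on CD was -0.23 (SE 0.38, adjusted p = 0.661), -0.80 (adjusted p = 0.0411) without WT CD replicate 2 and 0.73 without WT CD replicate 1. These 2 WT libraries thus set its direction.

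Igfbp5, a matrix-bound binding protein, had 140.1 to 343 CPM in WT CD, 238 to 469 in WT HFD, 187 to 311 in HoipA-KO CD and 239 to 418 in HoipA-KO HFD, with log2 fold changes of -0.02 on CD (SE 0.43, adjusted p = 0.982) and -0.14 on HFD (SE 0.38, adjusted p = 0.819). Igfbp2, known in adipose tissue as a leptin-responsive binding protein, had 2.61 to 15.8 CPM over the 12 libraries. It changed by -0.09 on CD (SE 0.77, adjusted p = 0.940) and -0.29 on HFD (SE 0.69, adjusted p = 0.796), with intervals of -1.81 to 1.64 and -1.84 to 1.26, which included both a rise and a fall of 1 on the log2 scale. Igfbp2 and Igfbp5 lie 5458 bases apart on chromosome 1.

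**Figure D4:**
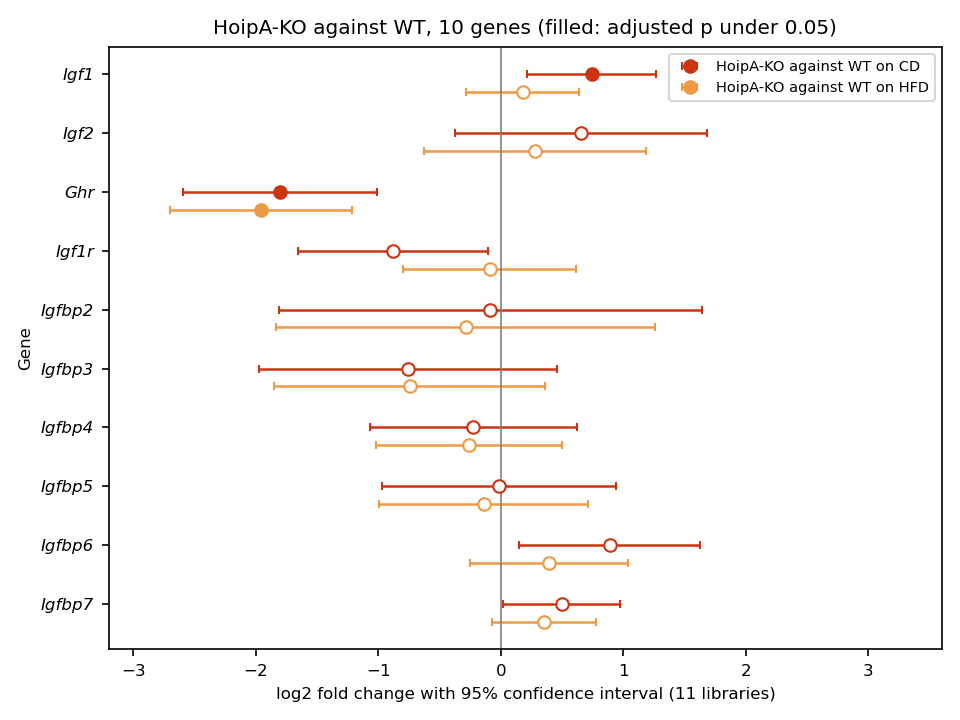
Log2 fold changes (horizontal axis) of the 10 members (vertical axis) in HoipA-KO against WT on CD and on HFD, over 11 libraries, with 95% confidence intervals from edgeR. Filled circles have an adjusted p under 0.05. Ghr lies at -1.80 and -1.96 with both intervals below 0, and Igf1 is called on CD at 0.74. The other members are not called, although on CD the intervals of Igf1r, Igfbp6 and Igfbp7 also exclude 0.

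Does HFD alter the axis, and does it do so differently without HOIP? In WT mice, 0 of 10 members were called between HFD and CD, in a comparison that called 14.8% of all genes, and 1 of 10 members had an unadjusted p under 0.05. DESeq2's Wald test also called 0 members. Igf1 differed by 0.41 on the log2 scale (SE 0.23, adjusted p = 0.260 with edgeR), and over all 12 libraries by 0.66 (adjusted p = 0.129). Igf1r differed by -0.89 (SE 0.35, adjusted p = 0.111), and by 0.05 (adjusted p = 0.918) without WT CD replicate 2. Ghr differed by -0.12 (SE 0.36, adjusted p = 0.847). These values depended on the WT CD libraries. With replicate 2 as the single WT CD library, Igf1 differed by 0.84 and Igf1r by -1.44.

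In HoipA-KO mice, 0 of 10 members and 0% of all genes were called between HFD and CD with edgeR, with 415 of 18427 genes and 0 members at an unadjusted p under 0.05 and 7 genes and 0 members called by DESeq2. Ghr differed by -0.27 (SE 0.32, interval -0.99 to 0.44) and Igf1 by -0.16 (SE 0.21, interval -0.62 to 0.30). The interaction of genotype and diet, which asks whether the change with genotype differed between the diets, was called for 0 of 10 members and for 3.91% of all genes, with 0 members at an unadjusted p under 0.05 and 0 called by DESeq2. It was -0.15 for Ghr (SE 0.48, interval -1.23 to 0.92, adjusted p = 0.882 with edgeR). For Igf1 it was -0.56 (SE 0.31, interval -1.26 to 0.13, adjusted p = 0.310), so the rise of Igf1 on CD was not shown to differ from the difference on HFD. It was 0.79 for Igf1r (SE 0.47, adjusted p = 0.349). With replicate 2 as the single WT CD library, the interaction was -0.99 for Igf1 and 1.35 for Igf1r. With replicate 1 as the single WT CD library, the values were -0.24 and -0.15.

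Of 33 further genes of the axis in 4 lists, 31 passed the filter, and in HoipA-KO on CD 6 were called higher and 8 lower, beside the 37.7% of all genes called. On HFD, 1 was higher and 8 were lower, beside the 11.8% of all genes called. Over all 12 libraries these were 7 and 6 on CD, beside 34.6%, and 0 and 2 on HFD, beside 2.89%. With each of the 11 libraries left out in turn, 4 to 7 were higher and 5 to 10 lower on CD, while on HFD 0 to 3 were higher and 0 to 10 lower, with none called without WT HFD replicate 1. Each of the 9 calls on HFD was lost without WT HFD replicate 1 or 2, 8 of them also without HoipA-KO HFD replicate 2 and 8 without HoipA-KO HFD replicate 3, with adjusted p of at most 0.118. The median log2 fold change of the 31 genes was -0.48 on CD and 0.01 on HFD.

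Among the genes of growth hormone signalling, 3 of 10 rose and 1 of 10 fell on CD, and 1 rose and 1 fell on HFD. The shares of all genes called in either direction were 37.7% and 11.8%. Over all 12 libraries, 4 rose and 0 fell on CD, beside 34.6% of all genes, and 0 were called on HFD, beside 2.89%. Socs3, which encodes a feedback inhibitor of cytokine and growth hormone receptors, had 5.27 to 8.07 CPM in WT CD, 9.06 to 13.0 in WT HFD, 16.7 to 21.4 in HoipA-KO CD and 20.6 to 27.1 in HoipA-KO HFD. It rose by 1.51 on CD (adjusted p = 0.00192 with edgeR). On HFD it rose by 0.97 (adjusted p = 0.0255), which was not called with all 12 libraries (0.0563). The phosphatase genes Ptpn1 (1.77, adjusted p = 0.00139) and Ptpn6 (2.56, adjusted p = 0.00888), the latter mainly known from blood cells, rose on CD. Stat5a, one of the factors that carry the signal, fell by 0.88 on CD (adjusted p = 0.000515) and by 0.44 on HFD (adjusted p = 0.0233), but over all 12 libraries neither was called (adjusted p = 0.206 and 0.454).

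Among the receptors and adaptors, 2 of 8 genes rose and 4 of 8 fell on CD, and 4 of 8 fell on HFD. The shares of all genes called in either direction were 37.7% and 11.8%. Over all 12 libraries, 2 of 8 rose and 2 of 8 fell on CD, beside 34.6% of all genes. On HFD, 0 of 8 were then called, beside 2.89%. Insr, the insulin receptor, had 69.2 to 137 CPM in WT CD, 82.3 to 107 in WT HFD, 44.1 to 64.2 in HoipA-KO CD and 49.7 to 50.3 in HoipA-KO HFD. It fell by 1.25 on CD (adjusted p = 0.000891 with edgeR) and by 0.95 on HFD (adjusted p = 0.0123), the latter not called over all 12 libraries (adjusted p = 0.0630). Irs1, which links both receptors to PI3 kinase, fell by 1.82 on CD (adjusted p = 0.00109). On HFD it fell by 1.01 (adjusted p = 0.0343), which was not called with all 12 libraries (0.146). Grb14, an inhibitor of the insulin receptor, fell by 1.97 on HFD (adjusted p = 0.0255, or 0.0557 with all 12 libraries). Igf2r, which clears IGF2 and sorts lysosomal enzymes, rose by 2.07 on CD (adjusted p = 0.00383), and the adaptor gene Shc1 by 0.67 (adjusted p = 0.00887, or 0.0508 without WT CD replicate 2). Irs2, lower on both diets, and Pik3r1, lower on CD, complete the counts. Over all 12 libraries neither was called (adjusted p = 0.134 on CD and 0.122 on HFD for Irs2, and 0.0811 on CD for Pik3r1), and on CD both calls were also lost without HoipA-KO CD replicate 2 or WT CD replicate 1 (adjusted p = 0.165 and 0.154 without the latter).

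Among the carriers and proteases, 2 of 7 tested genes fell on CD and 1 of 7 fell on HFD, and none rose. These counts stood beside 37.7% and 11.8% of all genes called in either direction. Stc1 (-3.78, adjusted p = 0.0104) and Stc2 (-2.54, adjusted p = 0.0149), which encode stanniocalcins that inhibit the cleavage of IGFBP4 by PAPPA, fell on CD. Stc2 had 15.2 to 65.2 CPM in WT CD and 3.81 to 9.72 in HoipA-KO CD. Both were called over all 12 libraries as well (Stc1 at -3.27, adjusted p = 0.0346, and Stc2 at -2.23, adjusted p = 0.0250). Stc1 was not called without WT CD replicate 2 (adjusted p = 0.0912), and Stc2 not without WT CD replicate 1 (adjusted p = 0.198) or HoipA-KO CD replicate 2. Igfals, the third partner of the circulating IGF complex, had 47.5 to 88.7 CPM in WT HFD and 2.93 to 19.8 in HoipA-KO HFD, and fell by 2.65 (adjusted p = 0.0347 with edgeR, and 0.0630 over all 12 libraries).

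Of the genes that bind Igf2 RNA or belong to the imprinted growth network, 1 of 6 rose and 1 of 6 fell on CD, and 2 of 6 fell on HFD. The shares of all genes called in either direction were 37.7% and 11.8%. Over all 12 libraries, 1 rose and 2 fell on CD, beside 34.6% of all genes, and 2 fell on HFD, beside 2.89%. Mest, an imprinted gene known to rise with the expansion of fat, was the clearest of these genes. It had 135, 65.4 and 51.3 CPM in WT CD, 1070.3, 662 and 621 in WT HFD, 61.03 to 102 in HoipA-KO CD and 31.3 to 186 in HoipA-KO HFD, so that the WT HFD libraries were above all others. In WT, Mest rose by 2.97 with HFD (adjusted p = 0.0239 with edgeR). This call was lost without WT CD replicate 2, WT HFD replicate 2 or WT HFD replicate 3. On HFD, Mest fell by 2.74 in HoipA-KO (adjusted p = 0.0229 with edgeR, and 0.0438 over all 12 libraries). Its interaction of -2.55 was not called with edgeR (adjusted p = 0.123, and 0.103 over all 12 libraries). With DESeq2 it was called (-2.50, adjusted p = 0.0211). Plagl1, an imprinted transcription factor gene, fell by 1.36 on CD (adjusted p = 0.0359), where 5 of 11 libraries ended the call when left out, and by 2.04 on HFD (adjusted p = 0.0199). Igf2bp2, whose product binds the RNA of Igf2 among others, rose by 2.92 on CD (adjusted p = 0.00871, and 0.0517 without WT CD replicate 2). In WT, Stat5a (-0.62, adjusted p = 0.00755) and Irs1 (-1.01, adjusted p = 0.0359) were also lower on HFD with edgeR. Neither was called over all 12 libraries (adjusted p = 0.578 and 0.201), and Irs1 was also lost without WT CD replicate 1 (adjusted p = 0.221) or any of the 3 WT HFD libraries. Between diets in HoipA-KO, edgeR called 0 of the 31 genes, with 2 at an unadjusted p under 0.05, and DESeq2 called 0. For the interaction edgeR also called 0, with 6 at an unadjusted p under 0.05, whereas DESeq2 called 2, Mest and Stat5a (0.50, adjusted p = 0.000253). Of all 18427 genes, edgeR called 721 for the interaction, with 4227 at an unadjusted p under 0.05, and DESeq2 called 2374. With edgeR the interaction of Stat5a was 0.44 (adjusted p = 0.111), and over all 12 libraries 0.09 (adjusted p = 0.928).

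**Figure D5:**
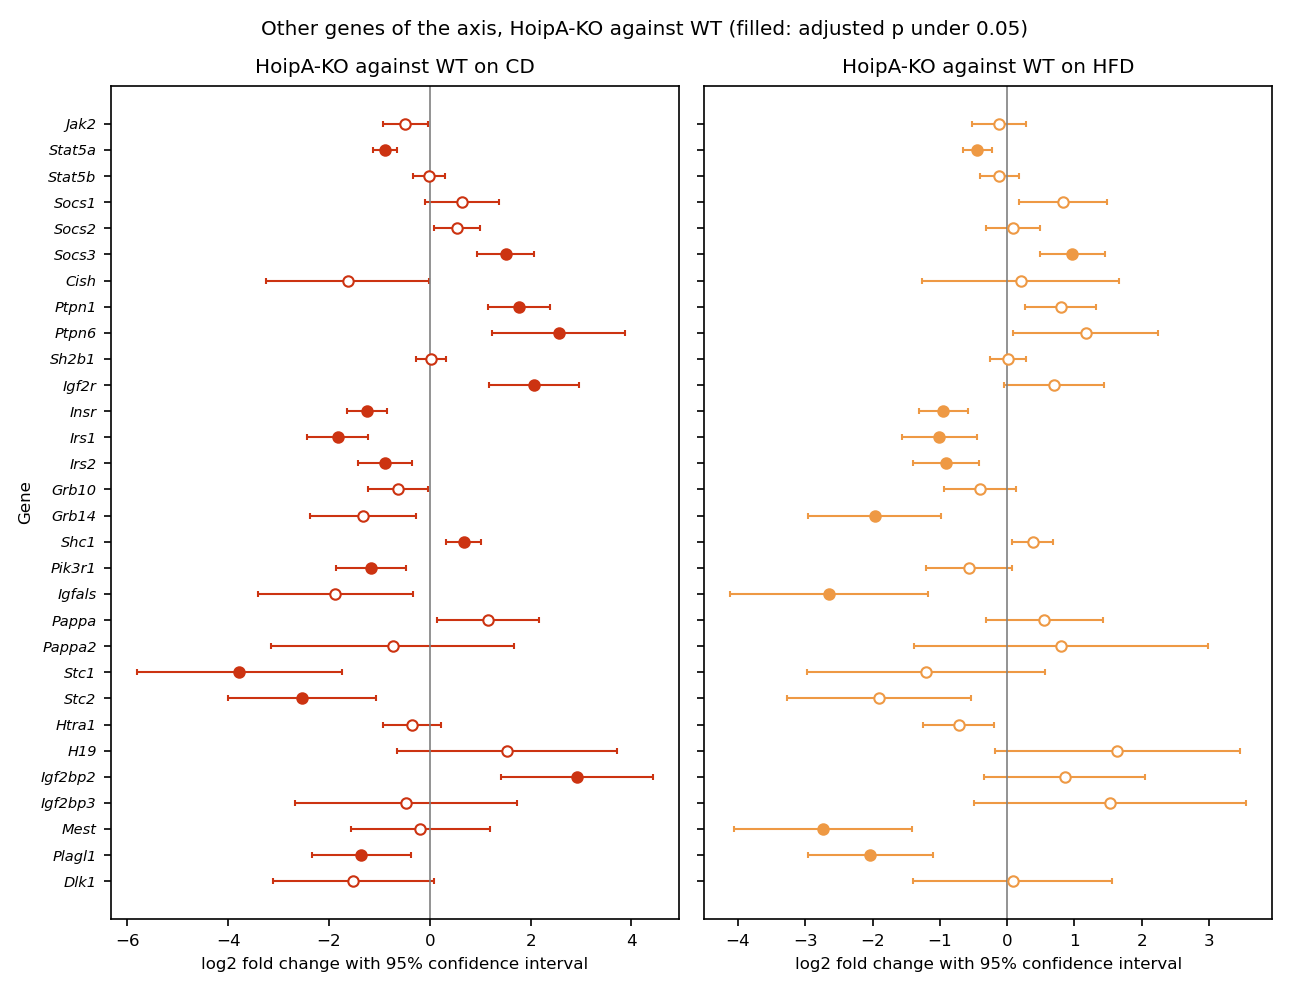
Log2 fold changes (horizontal axis) of 30 further genes of the axis (vertical axis) in HoipA-KO against WT on CD (left) and on HFD (right), over 11 libraries, with 95% confidence intervals from edgeR, and filled circles where the adjusted p was under 0.05. Igfbp1, at 0 in every library of a group, is left out. On CD 6 filled circles lie above 0 and 8 below, and on HFD 1 and 8.

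The genes whose pattern over the 11 libraries was nearest to that of a member were found by the root mean square difference of log2(CPM + 1), each gene centred on its mean. For Ghr they were Tshr (0.11), the receptor of thyrotropin, and Sowahc (0.15), among 9847 genes with a mean of at least 10 CPM. Tshr had 77.7 to 205 CPM in WT CD, 86.8 to 164 in WT HFD, 36.0 to 41.2 in HoipA-KO CD and 23.7 to 43.3 in HoipA-KO HFD. Since Tshr was picked for its likeness to Ghr in these data, its difference between the genotypes is no separate result. For Igf1 they were Rac1 (0.09), a small GTPase gene, and Pacsin2 (0.09). For Igf2 the nearest genes, Rspo1 (0.25) and Serpine2 (0.27) among 9848 genes, were farther away.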

How the data were processed

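RNA of GWAT was sequenced in 12 libraries of 4 groups, each of 3 pooled mice, after polyadenylated selection. The authors trimmed reads with Trim Galore 0.6.7, aligned them with STAR 2.7.10a and made expected counts per gene with Salmon 1.5.2 (versions per the submitters' processing notes, which name GRCm38, whereas the methods print a human build). These deposited estimated counts are not normalized, and 11.5% of values are not whole. The deposited DESeq2 tables hold the authors' fold changes and p-values and were not used.

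Rounded counts passed filterByExpr and TMM scaling and entered 1 model of the 4 groups in edgeR 4.0.16 in R 4.3.3 (quasi-likelihood test, Benjamini-Hochberg adjustment over all genes, threshold 0.05). The 11 libraries of the study's comparisons were used, without WT CD replicate 3. The 59 genes with no symbol held 0.0150% of counts. P-values measure the spread between pools. CPM per kb uses the summed exon length of GENCODE M21, which has a model for 94% of the genes. The step was tested on simulated data.

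The members and lists were chosen with earlier results of these data known. All members are named, and up to 5 genes per list by smallest p among those called on either diet. Alternatives were other scalings and filters, the protein-coding table, all 12 libraries, other choices of WT CD libraries, a replicate block, only the groups compared, DESeq2 1.42.0, a threshold of 0.01, CPM by library size, and leaving out each library.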

Additional observations from a re-analysis of the deposited data

How the results depend on the processing

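Ghr was lower in HoipA-KO in every alternative tried, on CD always past 0.05 with edgeR or DESeq2, and on HFD in all but the fit without HoipA-KO HFD replicate 2. The number of members called on CD was 2 of 10, beside 6947 of all genes called. It was 1 at an adjusted p of 0.01, and 4 over all 12 libraries, beside 6248 genes. It was 1 with WT CD replicates 1 and 3, beside 6681 genes, and 4 with replicates 2 and 3, beside 8264. It was 1 with only the groups compared, beside 4080 genes, and 4 with DESeq2, beside 8160. With a library other than WT CD replicate 1 or 2 left out, it was 1 to 3. On HFD, 1 of 10 became 0 at 0.01 and 0 to 1 with a library left out. Between the diets in WT, 0 became 3 with WT CD replicates 2 and 3, in a fit that called more of all genes, as given below. With a library other than WT CD replicate 1 or 2 left out, it stayed at 0. A fit without WT CD replicate 1 or 2 holds 1 WT CD library, with the spread taken from the other groups. For the interaction, 0 became 1 with WT CD replicates 2 and 3, in a fit that also called more of all genes. It stayed at 0 with a library other than WT CD replicate 1 or 2 left out. In HoipA-KO, 0 members were called between diets under each alternative. The changes between choices of WT CD libraries follow from the samples used, and the cause of the others was not tested.

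Signs that turned belonged to members that had not passed the test. On CD, with scaling by library size, Igfbp2 became 0.023 and Igfbp5 0.071 on the log2 scale, and over all 12 libraries Igfbp5 became 0.052. With WT CD replicates 2 and 3, Igfbp3 was 0.036, Igfbp4 0.61 and Igfbp5 0.46. With a library left out, Igf1r ranged from -1.45 to 0.064, Igfbp2 from -0.61 to 0.74, Igfbp3 from -1.30 to 0.13, Igfbp4 from -0.80 to 0.73 and Igfbp5 from -0.52 to 0.77. On HFD, Igf1r was 0.0037 with scaling by library size, Igfbp2 ranged from -0.72 to 0.33 and Igfbp5 from -0.37 to 0.062. Between diets in WT, Ghr was 0.14 over all 12 libraries, 0.75 with WT CD replicates 2 and 3 and -0.59 to 0.58 with a library left out, and Igf1r -1.44 to 0.053. In the interaction, Igf1r was -0.072 with WT CD replicates 1 and 3 and ranged from -0.15 to 1.35, and Ghr from -0.84 to 0.31. The median over all genes moved by 0.10 between the diets in HoipA-KO with scaling by library size, and on CD by -0.12 over all 12 libraries.

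With the replicate block, 2 members were called on CD (Ghr, and Igfbp3 at -0.82, adjusted p = 0.0286 with edgeR, while Igf1 had 0.0695) and 2 on HFD (Ghr, and Igfbp3 at -0.82, adjusted p = 0.0339), and Igfbp2 and Igfbp5 on CD were 0.36 and 0.13. Over all 12 libraries with the replicate block, 2 members were called on CD (Ghr, and Igf1 at 1.03, adjusted p = 0.0366, while Igfbp3 at -0.56 had 0.133) and 1 on HFD (Ghr). In that fit Igfbp4 and Igfbp5 on CD were 0.069 and 0.075, and Ghr between diets in WT was 0.22. The labels share only the numbers. Same-numbered libraries deviated from their group means with correlations of -0.32 to 0.57 in 15 pairs, 6 of them over 0.1, and 7 of 11 libraries correlated best with their own number, a hint from the data and not the design.

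Counts over all genes moved more. On CD they were 6947, and 4080 with only the groups compared. On HFD they were 2179, but 523 over all 12 libraries (756 with the block), 672 and 1298 with WT CD replicates 1 and 3 or 2 and 3, 4455 with DESeq2 and 279 to 3797 with a library left out. Between the diets in WT they were 2731, but 7046 with WT CD replicates 2 and 3, 1502 with the block (1439 over all 12 libraries), 0 with only the groups compared, 4551 with DESeq2 and 1045 to 5985 with a library left out. For the interaction they were 721, but 326 and 3550 with the other choices of WT CD libraries, 377 and 342 with the block, 2374 with DESeq2 and 1 to 3668 with a library left out. In HoipA-KO, DESeq2 called 7 genes between diets against 0.

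The 2 or 3 pools per group limit the precision, with 95% intervals on CD of -1.81 to 1.64 for Igfbp2 and -1.97 to 0.46 for Igfbp3. Each member exceeded the floor of detection in each library, and the effect of depth on the precision was not tested.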
